A study of Mus musculus with 8 samples.

Results

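The 10 genes described here encode proteins that coat lipid droplets, fuse them or release fatty acids from them in the liver: the perilipins Plin2, Plin4 and Plin5, the CIDE proteins Cidea, Cideb and Cidec, the lipase Pnpla2 with its inhibitor G0s2, Pnpla3, and the droplet enzyme Hsd17b13. They were picked by symbol from the 32285 genes in the files, and all 10 were present. They were read in single-nucleus RNA sequencing of snap-frozen livers from 8 male DIAMOND mice, 1 library per mouse. DIAMOND mice are a 129A1/SvIm and C57BL/6J cross that develops fatty liver disease and liver tumours on a Western diet. All 8 mice received that diet, which is high in fat and sugar, so no group here was free of it. The WD tumour mice (n = 3) stayed on it for 48 weeks and had hepatocellular carcinoma (HCC). Reversal (RD) meant 36 weeks on it followed by standard chow, after which HCC was found in the RD tumour mice (n = 2) and was not detected in the RD no tumour mice (n = 3). An age of 48 weeks at the end, as in the labels, cannot hold together with diets begun at 2 months of age and a 48-week diet, as in the series text. Whether a sampled piece of liver contained tumour is not given in the sources used here, and tumour cells were not separated from other hepatocytes. Each library is a separate mouse, and p-values measure the spread between these mice.

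Hepatocytes store triglyceride in droplets bounded by a phospholipid layer. Perilipins on that layer limit access by lipases, CIDE proteins enlarge droplets by passing lipid from a smaller to a larger one, and Pnpla2 (ATGL) starts triglyceride breakdown, with G0s2 as its direct inhibitor. Pnpla3 and Hsd17b13 are best known because common human variants in them alter the risk of fatty liver disease.

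The promoters of 4 members are shown because results described below concern these genes. Plin4 and Hsd17b13 differed between liver zones in opposite directions, and Plin2 had macrophage levels close to its hepatocyte levels. Pnpla3 was higher in each WD tumour mouse than in each RD mouse, at low counts. Each line gives the 250 bases before the RefSeq start on build GRCm38.p6, read 5′ to 3′ on the gene's strand. The windows are chr4:86670060-86670309 (minus strand) for Plin2, chr17:56109783-56110032 (minus strand) for Plin4, chr15:84167566-84167815 (plus strand) for Pnpla3 and chr5:103977389-103977638 (minus strand) for Hsd17b13. Capitals mark AGGTCA on either strand, a nuclear receptor half-site.
Plin2: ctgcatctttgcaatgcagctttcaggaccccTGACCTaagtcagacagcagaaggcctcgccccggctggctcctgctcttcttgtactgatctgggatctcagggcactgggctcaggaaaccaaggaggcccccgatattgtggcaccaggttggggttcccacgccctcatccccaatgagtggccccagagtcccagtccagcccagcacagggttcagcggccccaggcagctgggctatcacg
Plin4: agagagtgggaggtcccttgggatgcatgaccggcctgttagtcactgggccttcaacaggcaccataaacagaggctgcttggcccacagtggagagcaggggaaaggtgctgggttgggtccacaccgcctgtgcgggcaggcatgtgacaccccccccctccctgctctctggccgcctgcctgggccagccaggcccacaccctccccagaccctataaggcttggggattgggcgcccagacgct
Pnpla3: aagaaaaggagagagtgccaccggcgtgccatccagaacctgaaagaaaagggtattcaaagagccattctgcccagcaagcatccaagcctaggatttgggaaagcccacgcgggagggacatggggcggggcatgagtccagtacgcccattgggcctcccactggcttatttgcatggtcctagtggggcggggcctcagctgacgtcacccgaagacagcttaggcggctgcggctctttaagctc
Hsd17b13: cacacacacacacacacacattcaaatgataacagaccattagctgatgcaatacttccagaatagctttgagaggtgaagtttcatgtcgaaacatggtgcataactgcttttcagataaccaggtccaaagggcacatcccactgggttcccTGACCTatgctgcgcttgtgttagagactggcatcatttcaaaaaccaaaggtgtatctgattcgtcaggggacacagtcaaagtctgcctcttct
AGGTCA began 218 bases before the start in Plin2 and 96 bases before it in Hsd17b13, on the opposite strand to the gene in both. Plin5 held it 170 bases before 1 of its starts. RefSeq entries were found for 9 of the 10 members. Of 32851 mouse promoter windows of the same length, 14.0% held AGGTCA. Its direct repeat with 1 free base between (the DR1 form), which contains the half-site, was in 0.0335% of windows, TCACNCCAC in 1.05%, ATCAAAG in 3.21% and CACGTG in 6.02%, all searched on both strands. None of these longer or other motifs was in the members' windows. A match is a match of letters only.

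Gene bodies on GRCm38 lie at 4:86648386-86670060 for Plin2, 17:56100591-56109803 for Plin4, 17:56111601-56117596 for Plin5, 18:67343604-67367785 for Cidea, 14:55754050-55758458 for Cideb, 6:113424634-113435760 for Cidec, 7:141455198-141460743 for Pnpla2, 15:84167837-84187236 for Pnpla3, 1:193272161-193273217 for G0s2 and 5:103955440-103977410 for Hsd17b13. Plin4 and Plin5 are neighbours on the same strand, 1797 bases apart. Plin4, Cidea, Cideb and G0s2 overlap a gene on the opposite strand (Hdgfl2, B430212C06Rik, Nop9 and Lamb3) that the files also list. Pnpla3 overlaps 3 annotated genes not analysed here, Mir6392 and Gm49513 on its own strand and the pseudogene Gm20369 on the other. Whether counting used strand is not given in the sources used here.

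The values are unique molecular identifiers (UMIs), each standing for 1 captured RNA molecule, and levels are given as CPM, a gene's UMIs per 1000000 UMIs of the same class. The libraries held 17948627 to 34363108 UMIs in total, and 79446 of 80575 barcodes had at least 300 genes and were kept. Nuclei were assigned to classes by marker genes. Pairs of libraries shared 8 to 62 barcodes. The library RD tumour 1 stood apart: it held 20000 barcodes, 63.3% of its nuclei matched no class, and its gene levels correlated with those of the other libraries at 0.738 to 0.852, against 0.901 to 0.987 among the others (Pearson's r of log2 levels across 16306 genes, which are not independent replicates). Its neutrophil markers summed to 2795 CPM against 31 to 844 elsewhere. Its 1706 hepatocyte-like nuclei held a median of 6 of 14 hepatocyte markers, fewer than the 7 in its own endothelial-like and macrophage-like nuclei, and 447 of them sat at the gate's minimum of 5. The hepatocyte label is therefore not supported by the markers in that library, and its values are given with this limit. In the other 7 libraries hepatocyte-like nuclei held medians of 9 to 12 of these markers. They numbered 1936 to 5974 per mouse, with median UMIs per nucleus of 911 to 1001 in the WD tumour group and RD tumour 2 and 2530 to 4406 in the RD no tumour group. The median mitochondrial share over all nuclei was 7.91% and 7.51% in WD tumour 1 and 3, and 1.30% to 3.28% in the other libraries.

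Diet and tumour status were compared first in hepatocyte-like nuclei, with UMIs summed per mouse. No member passed an adjusted p of 0.05 in any group comparison, and neither did any other gene. Of 15558 genes tested with edgeR, 0 (0%) differed between WD tumour and the mean of the RD groups; 655 had an unadjusted p under 0.05, and DESeq2 called 47, no member among them. WD tumour was also set against RD no tumour (745 genes with an unadjusted p under 0.05; 96 by DESeq2) and against RD tumour alone (1317; 71), and the pair of RD groups against each other (2143; 572), and edgeR called 0% of genes in each. The 9 members that passed the count filter had a median log2 difference of -0.01 for WD tumour minus the RD mean, 4 positive and 5 negative, beside 0.00 for all genes. RD tumour 1 and RD tumour 2 differed widely. With RD tumour 2 left out, RD tumour 1 alone was set against RD no tumour, on the assumption that this mouse varies like the others. Then edgeR called 4926 genes (29.8%), and 5 members among them: Plin4 (-3.97 ± 1.06), Plin5 (-3.10 ± 0.96), Cideb (-2.24 ± 0.35) and Cidec (-2.40 ± 0.62) were lower and Pnpla2 (1.65 ± 0.28) was higher, in log2 units (SE). With RD tumour 1 left out, RD tumour 2 gave no member call, and Plin2 stood at 1.28 ± 0.43 (edgeR adjusted p = 0.731). The plot of hepatocyte levels shows each mouse.

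**Figure D1:**
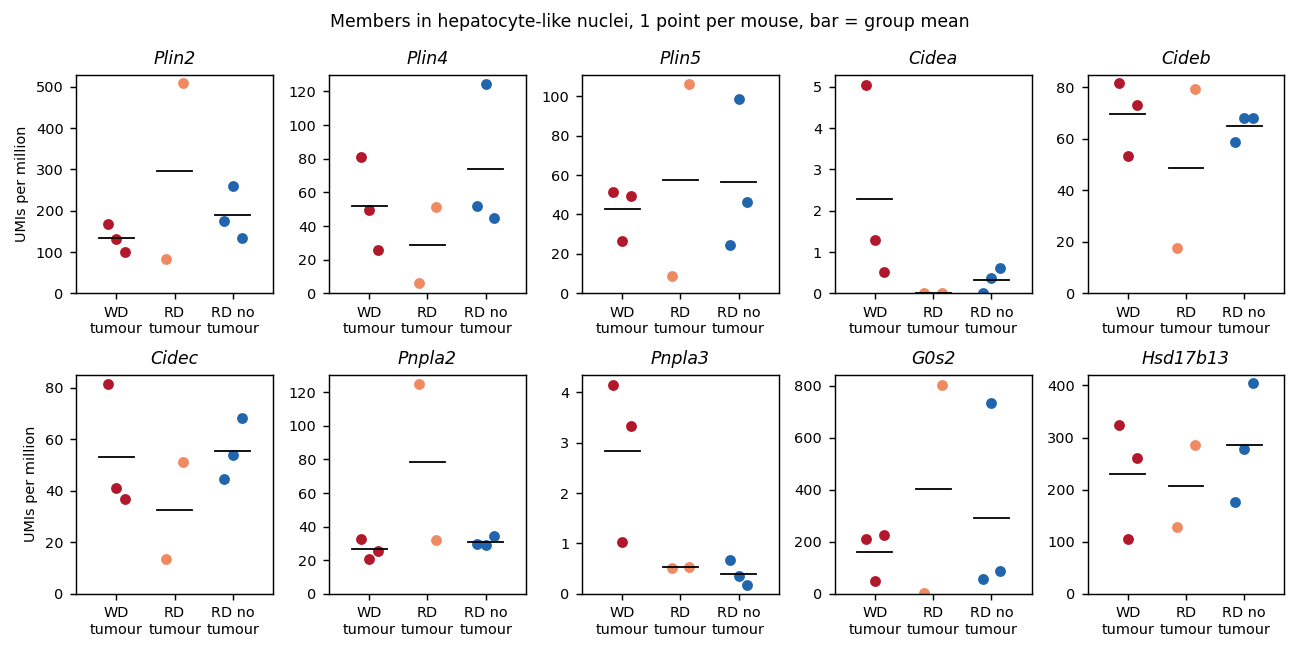
CPM of each member in hepatocyte-like nuclei, 1 panel per gene, with 1 point per mouse and a bar at the group mean (WD tumour n = 3 red, RD tumour n = 2 orange, RD no tumour n = 3 blue; linear axes from 0). RD tumour 1 and RD tumour 2 lie at or near opposite ends for Plin2, Plin5 and G0s2, and for Pnpla3 the WD tumour mice lie above all 5 RD mice.

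Among the coat genes, Plin2 encodes the perilipin found on droplets of most cell types. In hepatocyte-like nuclei its level was 169, 131 and 100 CPM in WD tumour 1 to 3, 83.3 and 508 in RD tumour 1 and 2, and 174, 259 and 135 in RD no tumour 1 to 3. The groups overlapped, with both extremes in the RD tumour group. The means were 133 ± 34.3 (SD, n = 3) on Western diet and 232 ± 167 (SD, n = 5) after reversal, a log2 difference of -0.75 ± 0.58 (SE; edgeR adjusted p = 0.982). Without RD tumour 1 the difference was -1.14 ± 0.33 (edgeR adjusted p = 0.621), and without RD tumour 2 it was 0.27 ± 0.32 (adjusted p = 0.631), so its direction rested on that pair of mice.

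Plin4 encodes a perilipin with a long repeat region that binds nascent droplets. Its hepatocyte level was 81.1, 49.6 and 25.9 CPM in the WD tumour mice, 6.06 and 51.6 in the RD tumour pair, and 52.1, 124 and 44.6 in the RD no tumour mice. RD tumour 1 was lowest and RD no tumour 2 highest, and the WD tumour mice lay between them. The difference was 0.24 ± 0.70 log2 units (SE). It was 1.49 ± 0.62 without RD tumour 2 (edgeR adjusted p = 0.191), and dropping RD tumour 1 instead gave -0.16 ± 0.54 (0.957).

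Plin5 encodes the perilipin of oxidative tissues that links droplets to mitochondria. Its values were 51.6, 26.7 and 49.4 CPM in the WD tumour mice, 8.59 and 106 in the RD tumour pair, and 24.6, 98.4 and 46.6 in the RD no tumour mice. The group means lay within 42.6 to 57.3, against SDs of 13.8 to 68.9, and the log2 difference was -0.37 ± 0.77 (SE). Without RD tumour 1 it was -0.80, and dropping RD tumour 2 gave 1.12, so its sign also turned.

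Of the CIDE genes, Cideb is the member normally made in liver, where it also acts in lipoprotein assembly. It varied little outside 1 mouse: 81.7, 53.4 and 73.1 CPM in the WD tumour mice, 79.4 for RD tumour 2, and 58.6, 67.9 and 68.0 for the RD no tumour mice, with 17.7 for RD tumour 1. The groups overlapped, and the log2 difference was 0.37 ± 0.45 (SE). Without RD tumour 2, which leaves RD tumour 1 as the only mouse of its group, it was 1.22 ± 0.22 with an edgeR adjusted p of 0.0370. Without RD tumour 1 it was 0.02 ± 0.21.

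Cidec (FSP27), which makes large droplets in fat cells and rises in fatty liver, stood at 81.7, 41.1 and 37.0 CPM in the WD tumour mice, 13.6 and 51.2 in the RD tumour pair, and 44.7, 53.7 and 68.2 in the RD no tumour mice. WD tumour 1 was highest and RD tumour 1 lowest. The difference of 0.39 ± 0.48 log2 units (SE) fell inside the spread of the mice.

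Cidea, a CIDE gene of brown fat that fatty liver can induce, was rare. Hepatocyte-like nuclei held 34, 5 and 5 Cidea UMIs in the WD tumour mice, 0 and 0 in the RD tumour pair, and 0, 4 and 10 in RD no tumour, too few for the test. In CPM these were 5.04, 1.28 and 0.51, then 0 and 0, then 0, 0.36 and 0.60; a count of 0 allows up to 1.52 in RD tumour 1, 0.40 in RD tumour 2 and 0.50 in RD no tumour 1. WD tumour 1 alone held 34 of the 44 UMIs of its group, and WD tumour 3 lay below RD no tumour 3. In whole libraries, where UMIs were summed over all kept nuclei and fewer cells of a type and less RNA per cell cannot be told apart, the levels were 5.35, 1.24 and 0.45, then 0.70 and 0.11, then 0.14, 0.44 and 0.65 CPM. The whole-library log2 difference was 2.48 ± 0.95 (SE; edgeR adjusted p = 0.947). Intervals and limits on counts cover counting error only.

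Pnpla2, the main triglyceride lipase, lay in a narrow band in most mice: 32.6, 20.8 and 25.7 CPM of hepatocyte-like nuclei in the WD tumour mice, 32.1 for RD tumour 2, and 29.9, 28.9 and 34.2 for the RD no tumour mice. RD tumour 1 stood alone at 125. The log2 difference was -0.77 ± 0.39 (SE; edgeR adjusted p = 0.982) with all mice. Without RD tumour 1 it was -0.18 ± 0.22, and without RD tumour 2 it was -1.06 ± 0.22 with an adjusted p of 0.0463. The excess in RD tumour 1 was not limited to hepatocyte-like nuclei, since its endothelial-like, stellate/fibroblast-like, macrophage-like and neutrophil-like nuclei held 129, 122, 175 and 143 CPM.

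In whole libraries Pnpla2 was 30.0, 19.1 and 26.2 CPM in the WD tumour mice, 141 and 30.1 in the RD tumour pair, and 30.5, 32.3 and 35.6 in the RD no tumour mice. All 3 WD tumour mice lay below all 5 RD mice, though WD tumour 1 and RD tumour 2 nearly met. Such a lower separation held for 1.14% of the 19087 genes tested, and Pnpla2 was 1 of the 10 members showing it. Its difference was -1.11 ± 0.49 log2 units (SE; edgeR adjusted p = 0.947), -0.30 ± 0.24 without RD tumour 1, and -1.47 ± 0.24 without RD tumour 2 (adjusted p = 0.0430).

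G0s2, the inhibitor of Pnpla2, varied widely. Its hepatocyte level was 212, 47.0 and 227 CPM in the WD tumour mice, 4.55 and 802 in the RD tumour pair, and 57.6, 732 and 89.0 in the RD no tumour mice. Mice of 1 group differed more than the groups did, and the difference of -1.05 ± 1.40 log2 units (SE) did not exceed that spread. Dropping RD tumour 1 gave -1.52, and dropping RD tumour 2 gave 2.31. RD tumour 1, with the highest Pnpla2, had the lowest G0s2; this is 1 mouse.

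Pnpla3, a lipase family member known as a target of the lipogenic regulator SREBP-1c, had few counts. Hepatocyte-like nuclei held 28, 4 and 33 Pnpla3 UMIs in the WD tumour mice, 1 and 4 in the RD tumour pair, and 4, 4 and 3 in RD no tumour, 65 against 16 in all. In CPM the levels were 4.15, 1.03 and 3.34, then 0.51 and 0.54, then 0.66, 0.36 and 0.18. All WD tumour mice lay above all RD mice, but the 95% exact Poisson interval of WD tumour 2, 0.28 to 2.63, covered the levels of 4 of the 5 RD mice. A higher separation of this kind held for 1.32% of genes in hepatocyte-like nuclei and 2.39% in whole libraries, and Pnpla3 was the only member showing it in either. No member lay lower in all WD tumour mice in hepatocyte-like nuclei, where 2.38% of genes did.

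The means were 2.84 ± 1.62 (SD, n = 3) and 0.449 ± 0.184 (SD, n = 5) CPM, and the log2 difference was 2.75 ± 0.62 (SE; edgeR adjusted p = 0.982; DESeq2 adjusted p = 0.0769). It was 2.92 ± 0.70 against RD no tumour alone and 2.59 ± 0.87 against RD tumour alone, comparisons that share the WD tumour mice. Pnpla3 passed the count filter through the WD tumour mice, and without WD tumour 1 or WD tumour 3 it was not tested. Leaving out RD tumour 1 or RD tumour 2 gave 2.74 and 2.89. Whole libraries of WD tumour held 3.34, 2.00 and 3.42 CPM, above the 0.90 to 1.68 CPM of the RD mice, a log2 difference of 1.04 ± 0.36 (SE; edgeR adjusted p = 0.947).

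Hsd17b13, a droplet enzyme of the hydroxysteroid dehydrogenase family that hepatocytes make in large amounts, was 325, 105 and 262 CPM in the WD tumour mice, 128 and 285 in the RD tumour pair, and 175, 279 and 405 in the RD no tumour mice. Every group spanned much of the whole range. The log2 difference was -0.01 ± 0.49 (SE).

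In whole libraries no gene passed either: edgeR called 0% of 19087 genes in each comparison. Unadjusted p under 0.05 and DESeq2 calls numbered 524 and 36 with RD no tumour as the reference of WD tumour, 1443 and 109 when RD tumour was the reference, 1279 and 64 between the RD groups, and 817 and 64 against the RD mean. The members' median for WD tumour minus the RD mean was 0.01, 5 positive and 5 negative, beside -0.03 for all genes. Within the other classes WD tumour was compared with RD no tumour alone. There edgeR called 0% of 14195 genes in endothelial-like, 12482 in stellate/fibroblast-like and 13893 in macrophage-like nuclei, with 251, 367 and 269 unadjusted p under 0.05, and DESeq2 called 7, 15 and 9. Of the members, Plin2 differed by -0.18 ± 0.47 and Pnpla3 by -0.73 ± 0.52 log2 units (SE) in macrophage-like nuclei. The sign for Pnpla3 there was opposite to that in hepatocyte-like nuclei; that difference itself was not tested.

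Of 42 other genes of droplet coats, lipolysis, triglyceride synthesis and their transcription factors, 41 were in the files and 37 were tested in hepatocyte-like nuclei. None was called by edgeR, 30 were higher and 7 lower in WD tumour than in the RD mean, and their median log2 difference was 0.24 beside 0.00 for all genes. Against RD no tumour alone 22 were higher and 15 lower, with a median of 0.14. Between the RD groups 8 were higher and 29 lower in RD tumour, the group that holds RD tumour 1, with a median of -0.25 beside -0.04 for all genes. Srebf1, which encodes SREBP-1, and Mogat1, a monoacylglycerol acyltransferase, were the ones higher in all WD tumour mice than in all RD mice. Of all genes tested, 1.32% were apart in this way. Srebf1 was 76.8, 28.0 and 62.2 CPM in the WD tumour mice, 24.2 and 10.5 in the RD tumour pair, and 15.8, 18.0 and 12.3 in RD no tumour, a log2 difference of 1.90 ± 0.37 (SE; edgeR adjusted p = 0.982; DESeq2 adjusted p = 0.0146). Mogat1 was 11.0, 7.19 and 3.14, then 0 and 1.88, then 1.98, 1.45 and 2.71, a difference of 2.25 ± 0.69 (SE; edgeR adjusted p = 0.982). DESeq2 called Srebf1 against RD no tumour as well (adjusted p = 0.0278). Between the RD groups it called Hilpda (log2 difference 1.81, adjusted p = 0.0258) and the nuclear receptor gene Ppard (0.96, adjusted p = 0.00890), both higher in RD tumour. Hilpda, an inhibitor of Pnpla2, had the most negative difference of these genes, -0.97 ± 0.40, with its highest levels in RD tumour 1 (30.3 CPM) and RD tumour 2 (16.9 CPM).

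By mean absolute difference of centred log2 levels over the 8 mice, the genes most like Pnpla3 in hepatocyte-like nuclei were Srebf1 (0.384), mt-Nd3 (0.392) and mt-Co3 (0.409). Those most like G0s2 were Fgf21 (0.568), Akr1c19 (0.611) and Mup21 (0.689), and those most like Pnpla2 were Rlim (0.113), Crebrf (0.120) and Atrx (0.126). Mitochondrial shares were also highest in WD tumour 1 and WD tumour 3, the mice with the most Pnpla3; their part in that result was not tested.

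Position along the liver lobule was compared within mice. Hepatocytes near the central vein and near the portal tract do different metabolic work, and hepatocyte-like nuclei were split by 12 pericentral and 12 periportal markers, none of them a member. RD tumour 1 was left out, with 8 pericentral-like nuclei; the other 7 mice had 271 to 890 pericentral-like and 184 to 2804 periportal-like nuclei. Of 11542 genes tested with mouse as a block, 1735 (15%) differed, 7.49% higher and 7.54% lower in pericentral-like nuclei. Among 8 members tested, Plin4 was higher and Hsd17b13 and Plin2 were lower.

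Plin4 was the pericentral member. Its pericentral level was 81.3, 86.4 and 28.1 CPM in WD tumour 1 to 3, 115 in RD tumour 2, and 139, 272 and 124 in RD no tumour 1 to 3. Its periportal level was 85.5, 32.5 and 24.4, then 36.2, then 24.7, 72.5 and 21.8. The pericentral level was the higher one in 6 of 7 mice, and the log2 difference was 1.53 ± 0.25 (SE; edgeR adjusted p = 0.000525).

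Hsd17b13 had the largest periportal difference of the tested members, and was higher in periportal-like nuclei in 7 of 7 mice. It stood at 112, 35.4 and 65.5 CPM in pericentral-like nuclei of WD tumour, 56.3 in RD tumour 2, and 26.1, 60.9 and 79.1 in the RD no tumour mice. Periportal-like nuclei held 487, 233 and 399, then 408, then 309, 403 and 620. The lowest periportal mouse was above the highest pericentral one, and the log2 difference was -2.75 ± 0.12 (SE; edgeR adjusted p = 3.64e-10).

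**Figure D2:**
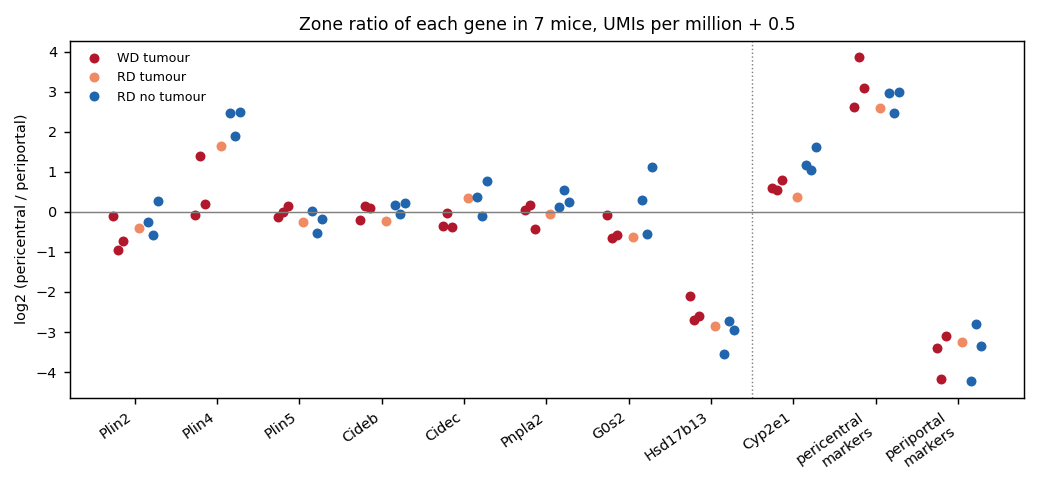
Log2 ratio of pericentral to periportal CPM for each member, 1 point per mouse (7 mice; WD tumour red, RD tumour 2 orange, RD no tumour blue; pseudocount of 0.5 CPM). Hsd17b13 lies below 0 in every mouse, from -3.54 to -2.11, and Plin4 reaches 2.49 in the RD no tumour mice.

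Plin2 leaned slightly to the periportal side, with per-mouse log2 ratios of -0.11, -0.96 and -0.72 in the WD tumour mice, -0.39 in RD tumour 2, and -0.25, -0.58 and 0.27 in the RD no tumour mice. The fitted difference of -0.36 ± 0.11 (SE) had an edgeR adjusted p of 0.0371, and the call was lost without WD tumour 2, WD tumour 3, RD tumour 2, RD no tumour 1 or RD no tumour 2 (adjusted p up to 0.122). The remaining members gave no call: Plin5 -0.18 ± 0.09, Cideb 0.02 ± 0.08, Cidec 0.13 ± 0.12, Pnpla2 0.11 ± 0.11 and G0s2 -0.15 ± 0.18 log2 units (SE). Of the neighbours on chromosome 17, Plin4 was thus called between zones and Plin5 was not. That contrast was not itself tested. In WD tumour 1 and WD tumour 3 the ratios were close, at -0.07 and 0.20 for Plin4 and -0.12 and 0.16 for Plin5. Cidea and Pnpla3 were too rare to test. Pnpla3 had 21, 1 and 27 UMIs in periportal-like against 2, 3 and 1 in pericentral-like nuclei of WD tumour 1 to 3, and at most 4 in either zone of any RD mouse.

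Of 36 other droplet pathway genes tested, 7 were higher and 5 lower in pericentral-like nuclei (7.49% and 7.54% of all genes). Their median was 0.09 beside -0.01 for all genes. Pparg, the nuclear receptor that drives fat storage genes, was higher by 1.59, Lpin2 by 0.69 and Fitm2, which acts in droplet budding, by 0.46. Gpat3 (-0.84), Srebf1 (-0.57), Ppargc1a (-0.56) and Acsl3 (-0.55) were lower, the last encoding a fatty acid activating enzyme that sits on nascent droplets. The other called genes were the lipases Abhd6 (0.38) and Lipc (0.36), the phospholipase Pnpla7 (0.31), the acyltransferase Gpam (0.25) and the transcription factor gene Creb3l3 (-0.40).

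Plin4's zone ratio was compared between the diets. All WD tumour mice had tumours and 3 of the 4 RD mice did not, so diet and tumour status cannot be told apart. The ratio was -0.07, 1.40 and 0.20 in the WD tumour mice, 1.66 in RD tumour 2, and 2.47, 1.90 and 2.49 in the RD no tumour mice. The WD tumour mice all lay below the RD mice. The share of all genes with zone ratios apart in this way was not computed. RD tumour 2 was the lowest RD mouse, and the means were 0.51 ± 0.78 (SD, n = 3) and 2.13 ± 0.42 (SD, n = 4). A test of zone by diet, added after these ratios had been seen, gave -1.75 ± 0.28 log2 units (SE; edgeR adjusted p = 0.0116), rank 12 by p among 11542 genes. In that test 16 genes (0.139%) passed, 12 of them lower (0.104%). The call was lost without WD tumour 1 (adjusted p = 0.422) and without WD tumour 3 (0.127), while the estimate stayed between -2.03 and -1.41 over all 7 leave-outs. Cidec (-0.63 ± 0.20, adjusted p = 0.492) and Hsd17b13 (0.59 ± 0.20, adjusted p = 0.543) did not pass.

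**Figure D3:**
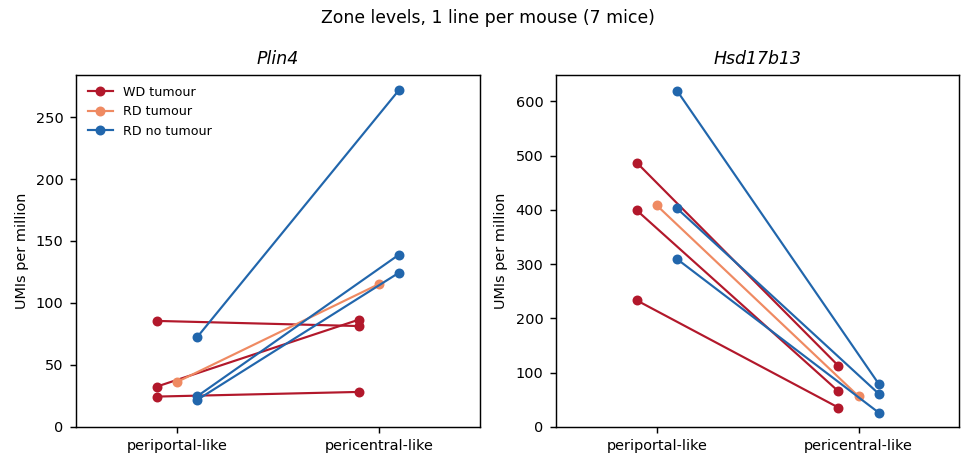
CPM of Plin4 and Hsd17b13 in pericentral-like and periportal-like nuclei, with a line joining the pair of values of each of 7 mice (WD tumour red, RD tumour 2 orange, RD no tumour blue). From periportal (left) to pericentral (right), Plin4 lines rise steeply in the RD mice and are nearly flat in WD tumour 1 and WD tumour 3, and every Hsd17b13 line falls.

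The zone markers defined the zones, so their separation was set by the gate and is no check of it. The median log2 ratio of the pericentral list averaged 3.20 over WD and 2.76 over RD mice, and that of the periportal list -3.56 and -3.41. Cyp2e1, a pericentral enzyme gene that was not used in the gate, averaged 0.65 over WD and 1.05 over RD mice. Depth differed between zones and mice, with median UMIs per pericentral-like nucleus of 1344, 1151 and 4103 in the WD tumour mice, 3590 in RD tumour 2, and 4028, 5773 and 3189 in the RD no tumour mice. Periportal-like nuclei had 2049, 3632 and 1644, then 1375, then 3496, 4561 and 2994. Nuclei with at least 1000 UMIs were thinned to 1000 UMIs, and nuclei with fewer were left out of the thinned shares. A Plin4 UMI was then expected in 6.81%, 6.40% and 2.99% of pericentral-like nuclei of WD tumour, 10.7% in RD tumour 2, and 12.2%, 21.0% and 11.5% in the RD no tumour mice. Unthinned, and over all pericentral-like nuclei, the shares were 16.2%, 14.9% and 10.0%, then 29.4%, then 33.6%, 64.1% and 27.4%. In periportal-like nuclei the thinned shares were 7.41%, 2.69% and 2.73%, then 3.63%, then 2.31%, 6.49% and 2.16%. The WD tumour mice thus lay apart from the RD mice in the pericentral nuclei and overlapped with them in the periportal ones. The share of all genes behaving in this way was not computed.

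Cell classes were compared within mice against hepatocyte-like nuclei. Nuclei of the 4 other classes compared held a median of 7 to 10.5 of the 14 hepatocyte markers, depending on the mouse. Free RNA and droplets with more than 1 nucleus were not told apart as a source. As a yardstick, the 24 zone marker genes of hepatocytes had median log2 ratios to hepatocyte-like nuclei of -0.62 in endothelial-like, -1.21 in stellate/fibroblast-like, -0.90 in macrophage-like and -0.69 in cholangiocyte-like nuclei. A member near these values is at the level that hepatocyte genes reach there. In endothelial-like nuclei 7 of 8 tested members were lower (31.3% of 13830 genes were lower), in stellate/fibroblast-like 7 of 8 (30.2% of 11933), in macrophage-like 6 of 9 (30% of 13825) and in cholangiocyte-like 6 of 8 over 7 mice (14.4% of 11801). The shares of the members were above these backgrounds, and the medians of the zone genes were also below 0. Leaving out RD tumour 1 ended none of the members' calls in endothelial-like, stellate/fibroblast-like or macrophage-like nuclei. With 3 cholangiocyte-like nuclei, that mouse was not in the cholangiocyte comparison.

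Plin4 differed from hepatocytes by -0.96 ± 0.18 in endothelial-like, -1.65 ± 0.21 in stellate/fibroblast-like, -1.22 ± 0.16 in macrophage-like and -1.49 ± 0.22 log2 units (SE) in cholangiocyte-like nuclei. Cidec was alike, at -0.92 ± 0.19, -1.66 ± 0.19 and -1.23 ± 0.20 in the first 3. The median gap of Plin4 to the zone genes of the same mice was -0.22, -0.30 and -0.18 in those 3 classes and -0.85 in cholangiocyte-like nuclei. Another yardstick, the median of the 14 hepatocyte markers, was higher in stellate/fibroblast-like nuclei, at -0.58, where the median ratio of Plin4 was -1.34.

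Other members stood above the median of the zone genes. The difference of Plin2 between macrophage-like and hepatocyte-like nuclei was 0.04 ± 0.13 log2 units (SE; edgeR adjusted p = 0.818), with macrophage levels of 167, 205 and 167 CPM in the WD tumour mice, 89.1 and 419 in the RD tumour pair, and 202, 205 and 188 in the RD no tumour mice. It lay above the zone genes in 8 of 8 mice, by a median of 1.00. Pnpla2 did so too, by 1.03 in macrophage-like (8 of 8 mice) and 0.56 in endothelial-like nuclei (8 of 8), with fitted differences to hepatocytes of 0.12 ± 0.12 and -0.05 ± 0.11 (edgeR adjusted p = 0.411 and 0.703). In stellate/fibroblast-like nuclei both lay 0.79 above, Plin2 in 7 of 8 mice and Pnpla2 in 8 of 8. The hepatocyte marker median was itself above the zone genes, by 0.17 in macrophage-like (8 of 8), 0.08 in endothelial-like (6 of 8) and 0.52 in stellate/fibroblast-like nuclei (8 of 8). So was the fitted median over all genes tested. It was -0.07 in macrophage-like, -0.08 in endothelial-like, -0.09 in stellate/fibroblast-like and -0.10 in cholangiocyte-like nuclei. Standing above the zone genes is therefore not particular to these members, and the share of all genes doing so was not computed.

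Pnpla3 was higher in macrophage-like than in hepatocyte-like nuclei, by 1.49 ± 0.56 log2 units (SE; edgeR adjusted p = 0.0405), where 27.1% of genes were higher. Its macrophage levels were 2.47, 2.79 and 2.24 CPM in the WD tumour mice, 1.04 and 3.03 in the RD tumour pair, and 4.13, 4.58 and 3.68 in RD no tumour, from 3 to 27 UMIs per mouse. The direction was opposite in WD tumour 1 and WD tumour 3, where hepatocyte-like nuclei held 4.15 and 3.34 CPM. In the RD mice hepatocyte-like nuclei held 0.18 to 0.66 CPM, from 1 to 4 UMIs per mouse. The call was lost without WD tumour 2, RD tumour 2, RD no tumour 2 or RD no tumour 3, with edgeR adjusted p up to 0.105, and without RD no tumour 1 the gene was not tested. In the other classes compared Pnpla3 was too rare to test. Its median log2 ratio to hepatocyte-like nuclei was 1.03 in endothelial-like, 0.92 in stellate/fibroblast-like and 1.96 in cholangiocyte-like nuclei. Single mice ranged from -0.44 to 1.53, from -1.01 to 3.16 and from -1.21 to 3.03, so the direction differed between mice in each class.

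G0s2 was not called in stellate/fibroblast-like nuclei (-0.34 ± 0.34, adjusted p = 0.423) and was lower in the other classes, by -1.02 in macrophage-like and -1.21 ± 0.15 in cholangiocyte-like nuclei. Hsd17b13 was lower in endothelial-like (-0.64 ± 0.11) and stellate/fibroblast-like nuclei (-0.98). In cholangiocyte-like nuclei its difference from hepatocytes was -0.01 ± 0.18 (edgeR adjusted p = 0.977), and it lay above the zone genes in 7 of 7 mice, by a median of 0.78, at 350, 295 and 296 CPM in the WD tumour mice, 188 in RD tumour 2, and 227, 203 and 439 in the RD no tumour mice. These levels were below those of periportal-like nuclei of the same mouse, except in WD tumour 2 (233 CPM periportal). The zone genes mix both zones, so they are no matched yardstick for a gene with higher periportal levels. The source of Hsd17b13 RNA in cholangiocyte-like nuclei was not tested. The cholangiocyte call for Plin2 (-0.47) was lost without RD tumour 2, that for Plin5 (-0.72) without WD tumour 1, and that for Cidec (-0.69) without any 1 of WD tumour 1, RD tumour 2 and the 3 RD no tumour mice.

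**Figure D4:**
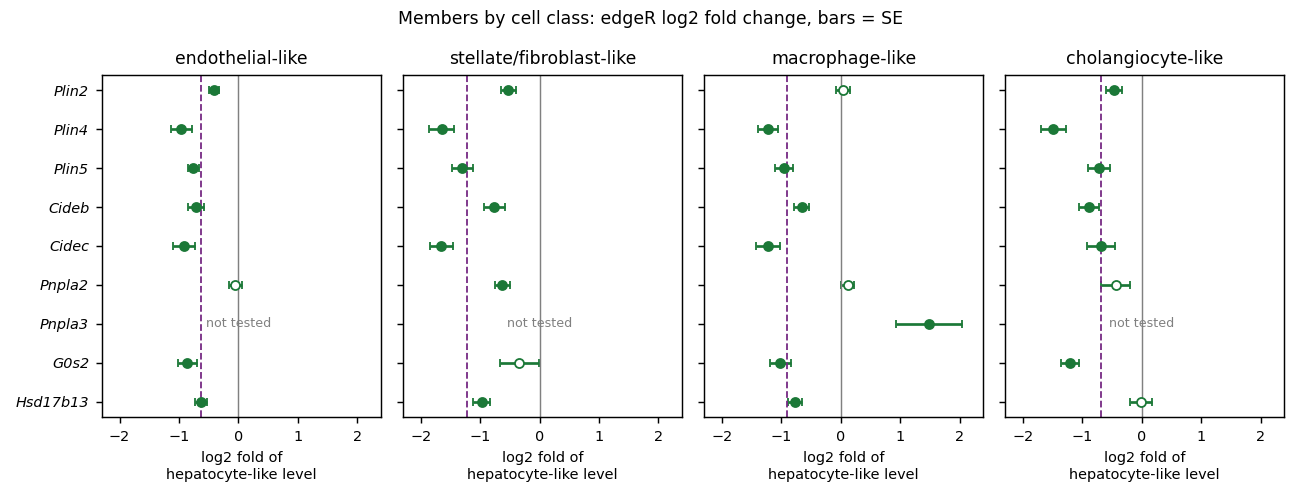
Log2 difference of each member between a cell class and hepatocyte-like nuclei of the same mice, with bars for the standard error (filled, edgeR adjusted p under 0.05; open, not). The dashed purple line is the median of 24 zonated hepatocyte genes. Plin2, Pnpla2 and Pnpla3 in macrophage-like and Hsd17b13 in cholangiocyte-like nuclei lie above it, as do other members in each class.

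The other droplet pathway genes were mostly lower as well. Of 36 tested, 22 were lower and 5 higher in endothelial-like nuclei (31.3% of all genes were lower and 25.1% higher). The counts were 26 and 1 in stellate/fibroblast-like (30.2% and 24%) and 21 and 6 in macrophage-like nuclei (30% and 27.1%). In cholangiocyte-like nuclei they were 15 and 0 (14.4% and 10.8%). Their median log2 differences were -0.37, -0.57, -0.39 and -0.46, beside -0.08, -0.09, -0.07 and -0.10 for all genes. In macrophage-like nuclei the 6 higher genes were Pparg (1.56 ± 0.26), Nr1h3 (1.34 ± 0.16), a liver X receptor gene, Ppard (0.74), Pnpla7 (0.69), Hilpda (0.50) and Lipa (0.46), the lysosomal lipase. In endothelial-like nuclei they were Abhd6 (0.67), Pparg (0.53), Ppard (0.44), Abhd5 (0.36), the activator of Pnpla2, and Lipe (0.26), and in stellate/fibroblast-like nuclei Ppard (0.91). Mlxipl, which encodes the sugar-responsive factor ChREBP, was among the lower genes in all 4 classes, from -1.84 to -0.72.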

How the data were processed

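Nuclei of 8 mouse livers were sequenced as 1 library each (10x Chromium 3′ chemistry, v3.1, per the labels' protocols). The authors deposited raw UMI counts per gene and barcode, made with Cell Ranger 7.0.0 on mm10 per the submitters' processing notes; the annotation, the counting of introns and the calling of cells are not given in the sources used here. The members and gene lists were chosen with earlier results of these data known.

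Barcodes with at least 300 genes were kept. A class needed at least 3 of its markers and 2 more than the next class. Hepatocyte-like nuclei needed at least 5 of 14 markers and at most 1 marker of any other class. Zones needed 2 markers and a lead of 2. The classes are ranges, not types. No doublet caller was run, mixed nuclei stayed unassigned, and free RNA was not removed.

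Counts were summed per mouse and class (at least 20 nuclei) and tested with edgeR 4.0.16 (quasi-likelihood, TMM scaling, filterByExpr, Benjamini-Hochberg adjustment over all tested genes, threshold 0.05) in R 4.3.3. Group comparisons used all mice of the 3 groups, and class and zone comparisons had mouse as a block. Standard errors were derived from the log2 difference and F. Levels are CPM (UMIs per 1000000 UMIs of the class), and ratios add 0.5 CPM. Alternatives were DESeq2 1.42.0, RLE size factors, no low-count filter, 500 genes, at most 5% mitochondrial UMIs, leaving out the 5% of barcodes with the most UMIs, a stricter gate, a replicate block and leaving out each mouse. All members were named. Of the other listed genes, those past the threshold were named, or, where none passed, those with the largest differences or with groups apart. In the cell class comparisons most listed genes passed, and those higher are named and the lower ones counted. On counts simulated for 18804 genes of the whole-library comparison of WD tumour with RD no tumour, 21% of 4-fold and 74% of 16-fold changes were recovered with 2 false calls.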

Additional observations from a re-analysis of the deposited data

Results flagged for a closer look

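The pericentral to periportal log2 ratio of Plin4 was lower by -1.75 ± 0.28 (SE; edgeR adjusted p = 0.0116) in 3 WD tumour mice than in 4 RD mice, a difference between groups in the zone-by-diet test. That test was added after the per-mouse ratios had been seen, so it is no independent evidence. The call was lost without WD tumour 1 (adjusted p = 0.422) and without WD tumour 3 (0.127), and diet and tumour status cannot be told apart in these mice.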

How the results depend on the processing

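Depth limits Pnpla3 and Cidea, with at most 34 UMIs per mouse in hepatocyte-like nuclei. DESeq2 called 36, 109, 64 and 64 genes in whole libraries (WD tumour with RD no tumour and then with RD tumour as reference, the RD groups against each other, and WD tumour against the RD mean), 96, 71, 572 and 47 in hepatocyte-like nuclei in that order, and 7, 15 and 9 in endothelial-like, stellate/fibroblast-like and macrophage-like nuclei, where edgeR called 0. With no low-count filter edgeR called 2 in stellate/fibroblast-like nuclei and 138 for zone by diet. Leaving out 1 mouse gave 0 to 4438, 0 to 4569 and 0 to 716 in the last 3 whole-library comparisons and 0 to 3575, 0 to 4926 and 0 to 746 in hepatocyte-like nuclei, each highest without RD tumour 2. Without RD tumour 1 the whole-library count between the RD groups was 11, and the hepatocyte counts for the comparisons with RD tumour were 2 and 4. The ranges were 0 to 2 in endothelial-like and in stellate/fibroblast-like nuclei, both highest without RD no tumour 1. For zone by diet the range was 3 to 44, with 5 without WD tumour 1, 3 without WD tumour 3, 28 without RD tumour 2 and 44 without RD no tumour 1. The causes were not tested.

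Signs turned for members whose differences were near 0 or rested on few mice. For WD tumour against the RD mean in hepatocyte-like nuclei, leaving out 1 mouse gave Plin2 -1.14 to 0.27, Plin4 -0.22 to 1.49, Plin5 -0.80 to 1.12, Cidec -0.047 to 1.14, G0s2 -1.52 to 2.31 and Hsd17b13 -0.34 to 0.44. Hsd17b13 was 0.025 with no low-count filter, 0.019 with 500 genes and 0.012 without the barcodes with the most UMIs. Against hepatocyte-like nuclei the ranges were -0.12 to 0.0028 for Pnpla2 in endothelial-like, -0.054 to 0.11 for Plin2 in macrophage-like and -0.26 to 0.11 for Hsd17b13 in cholangiocyte-like nuclei; with no low-count filter Plin2 was -0.19 and Pnpla2 -0.11 in macrophage-like nuclei, and with RLE size factors Hsd17b13 was 0.0053 in cholangiocyte-like nuclei. Between zones Cideb ranged from -0.025 to 0.066 and Cidec from -0.032 to 0.21, and Cideb was -0.0041 with no low-count filter.

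Whether the replicate numbers pair the mice was not settled. Deviations from group means correlated at -0.58 to 0.46 over 7 same-numbered pairs, 3 of them above 0.1, and at -0.56 to 0.68 over the 14 other pairs. Within groups of 2 or 3 mice such deviations are tied to each other, so this check cannot decide the question. With a replicate block edgeR called 0 genes in each group comparison, and the hepatocyte differences of Plin5 and G0s2 became 0.35 and 1.37.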
